A study of Mus musculus with 89 samples.

Results

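The 10 circadian clock genes Per1, Per2, Per3, Arntl, Clock, Npas2, Dbp, Nr1d1, Nr1d2 and Tef were followed through 89 RNA-seq libraries of the mouse brain. They were chosen by symbol, and all 10 were measured in each of the 3 deposited tables, among 14964 genes of the Klotho mice, 13662 genes of the choroid plexus and 14440 genes of the hippocampus. The Klotho mice were 4 α-Klotho knockout mice (Klko) and 4 wildtype mice (WT-y) of 2 months, and 5 mice heterozygous for Klotho (Klhet) and 4 wildtype mice (WT-o) of 9 months. Klotho is a transmembrane protein whose loss in mice brings on features of early ageing and an early death. The infused mice were aged C57BL/6 males of 21 to 24 months given, into the tail vein, 100 µL of serum of young mice (YS), the same volume of young serum from which extracellular vesicles had been precipitated with ExoQuick (YDS), or a sham injection (Sham). The injections were repeated every 3 days for 25 days, in the evening. Choroid plexus was sequenced from 12 YS, 14 YDS and 8 Sham mice, and hippocampus from 14 YS, 14 YDS and 10 Sham mice, with both tissues from 34 of them. The arm of each infused mouse was read from the column names of the deposited tables, since the sample labels do not separate the arms. All mice were anesthetized with Avertin and perfused with saline, and the time of day at which tissue was taken is not given in the sources used here.

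The mammalian clock is a feedback loop of transcription. CLOCK or its paralog NPAS2 pairs with BMAL1, the product of Arntl, and the pair binds E-boxes and drives the Per genes, Nr1d1, Nr1d2, Dbp and Tef. PER proteins, together with CRY proteins, then repress the pair, while REV-ERBα and REV-ERBβ, the products of Nr1d1 and Nr1d2, repress Arntl and Npas2. In rhythmic mouse tissues, Dbp and Per transcripts therefore peak when those of Arntl and Npas2 are near their trough. The choroid plexus is known for a strong local clock.

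The RefSeq promoter table (GRCm38.p6) held windows from 250 bases before to 50 bases after 14 transcription starts of 9 members, with Per2 not among them. The letters searched on both strands were the E-box CACGTG, the E′-box CACGTT, the D-box TTATGTAA or TTACGTAA bound by DBP and TEF, the ROR element core TAGGTCA or TGGGTCA bound by REV-ERB, and the cAMP response element TGACGTCA. At least 1 of them was found in 5 members, and the stretches around them are printed because they carry the letters through which the genes of this loop are known to act on each other. Capitals mark the matched letters, and each line runs 5′ to 3′ on the strand of its gene.
Per1, chr11:69098743-69098828, + strand: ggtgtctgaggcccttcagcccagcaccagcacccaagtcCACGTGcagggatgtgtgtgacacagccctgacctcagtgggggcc
Tef, chr15:81802506-81802591, + strand: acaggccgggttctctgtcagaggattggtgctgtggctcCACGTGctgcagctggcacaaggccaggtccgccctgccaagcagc
Nr1d1, chr11:98775378-98775445, - strand: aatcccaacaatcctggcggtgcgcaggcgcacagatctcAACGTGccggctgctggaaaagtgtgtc
Per3, chr4:151044776-151044910, - strand: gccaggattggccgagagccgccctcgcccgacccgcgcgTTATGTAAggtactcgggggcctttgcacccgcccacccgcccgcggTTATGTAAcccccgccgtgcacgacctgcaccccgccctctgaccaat
Arntl, chr7:113207530-113207559, + strand: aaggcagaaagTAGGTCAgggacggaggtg

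Counted from the transcription start, the E-box of Per1 begins at -166 and that of Tef at -127. The window of the other transcription start of Tef, not printed, holds an E-box too, from -138. The E′-box of Nr1d1, read there as its reverse complement, begins at -28. Per3 holds the D-box letters 2 times, from -205 and from -158. The ROR element core of Arntl begins 30 bases past the start. Among 32851 promoter windows of this length, 7.15% hold an E-box, 4.69% an E′-box, 1.06% a D-box, 6.45% a ROR element core and 1.79% the cAMP response element, which no member window holds. A match is a description of these letters only.

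The counted reads, recovered from the step between low values, ranged over the libraries of the Klotho mice from 26338890 to 40229041, over those of the choroid plexus from 27165663 to 46836730 and over those of the hippocampus from 23231524 to 40801000. Values are CPM, the reads of a gene per 1000000 counted reads of its library, so that 1 CPM rested on 23.2 to 46.8 reads. Each mouse gave 1 library per tissue, p-values measure the spread between these mice, and in bulk tissue fewer cells of a type and less RNA per cell cannot be told apart. Kl, the targeted gene, had 2.90 to 23.3 CPM in Klko mice against 62.3 to 236.9 CPM in WT-y mice, and 15.6 to 127.8 CPM in Klhet mice against 126.8 to 255.6 CPM in WT-o mice, where 1 Klhet library reached the lowest WT-o library. The Klotho libraries are labelled brain, their extraction protocol names cortex and the study's methods name hippocampus. All 8 hippocampal marker genes fixed for this check were measured in them, as were all 10 striatal and all 10 choroid plexus epithelial markers. Measurement of these markers thus does not tell which tissue was sequenced. In the choroid plexus all 10 epithelial markers were measured, and the first principal component, made without clock genes, took 55.6% of the variance. It set 12 of the 13 libraries numbered up to C418, called the first run here, apart from the 21 numbered C419 to C440, the second run. The Sham library C410 has a number of the first run but lay within the range of the second run on this component, with Clock at 165 CPM, and was kept in the first run by its number. Libraries carry the letter C or H of their tissue and the number of the mouse, as in the labels, and the hippocampal libraries were divided at H418 in the same way. In the hippocampus 5 libraries, H405, H406, H407, H424 and H427, stood apart. The 3 hypothalamic markers measured, out of 7, had summed levels of 18.3 to 26.3 CPM there against 4.88 to 12.9 CPM in the others. The neuronal marker Snap25 ran from 2342 to 3098 CPM there against 1032 to 1801 CPM in the others. Summed over all 10 neuronal markers, the levels overlapped, with a median of 13530 CPM there and 14120 CPM in the others. The 8 hippocampal markers had summed levels of 824.5 to 926.9 CPM there against 851.4 to 1242 CPM in the others. What set these libraries apart was not tested. Results that rest on these libraries or runs are given with and without them, unless stated otherwise. The runs were defined after the values had been seen.

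Per kilobase of merged exon, Nr1d1 had the highest median of the members in all 3 tables, at 107.1 CPM per kilobase in the Klotho mice, 93.1 CPM per kilobase in the hippocampus of infused mice and 28.0 CPM per kilobase in their choroid plexus. Tef, a PAR bZIP transcription factor, came next in the Klotho mice, at 56.6 CPM per kilobase. It was also next in the hippocampus of infused mice, at 73.4 CPM per kilobase. In the choroid plexus the order was Nr1d1, Nr1d2 at 25.8, Tef at 19.2, Dbp at 13.5, Per1 at 12.3, Clock at 8.49, Per2 at 7.74, Per3 at 3.97, Npas2 at 3.10 and Arntl at 0.832 CPM per kilobase. Neighbours in that order were not all distinct: Nr1d2 was at least as high as Nr1d1 in 19 of 34 libraries and Per1 at least as high as Dbp in 22 of 34. Arntl had the lowest median of the choroid plexus and was below Npas2 in 34 of 34 libraries. In the hippocampus of infused mice, Per3 and Arntl were lowest, at 3.72 and 3.82 CPM per kilobase, and Per3 was at least as high as Arntl in 15 of 38 libraries. Levels were compared between tissues in order only, since the tables were made separately.

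The first comparison asked whether clock transcripts differed in mice without Klotho at 2 months. Nr1d1 and Dbp rose and Per2 and Clock fell in Klko mice against WT-y mice, by limma with Benjamini-Hochberg adjustment over 14964 genes. These are 4 of 10 members, 2 higher and 2 lower, against 11.3% of all genes at an adjusted p under 0.05. When only these 8 libraries were fitted, 0 members and 20 genes, or 0.134%, passed, and when 1 library was left out the share of all genes ran from 3.1% (without WT-y replicate 1) to 25.9% (without WT-y replicate 2). At an unadjusted p under 0.05 there were 5 members, against 28.9% of all genes. The groups did not overlap for 4 members, against 12.2% of all genes. The median log2 fold change was -0.11 over the members and -0.02 over all genes.

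Nr1d1 (chr11:98767932-98775333, GRCm38), which encodes REV-ERBα, had 395.6, 409.1, 366.5 and 379.7 CPM in Klko mice, against 278.0, 264.9, 282.4 and 312.5 CPM in WT-y mice. All 4 Klko libraries lay above all 4 WT-y libraries. The difference was 0.45 on the log2 scale (SE 0.08, limma adjusted p = 0.0051). It was the most precisely measured change among the members, with group means of 387.7 ± 18.6 CPM in Klko mice and 284.5 ± 20.1 CPM in WT-y mice (SD, n = 4 each).

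Dbp (chr7:45705088-45710203), a PAR bZIP transcription factor and a well-known direct target of CLOCK and BMAL1, had 79.8, 62.9, 78.0 and 88.0 CPM in Klko mice, against 28.5, 69.9, 44.3 and 54.7 CPM in WT-y mice. The groups overlapped, since WT-y replicate 2 was above Klko replicate 2. The difference was 0.70 on the log2 scale (SE 0.20, limma adjusted p = 0.0353). Tef, of the same family, had 388.7 to 469.8 CPM in Klko mice and 375.3 to 456.8 CPM in WT-y mice, a difference of 0.10 that did not pass (SE 0.09, limma adjusted p = 0.48).

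Per2 (chr1:91415982-91459324), a repressor of the loop, had 18.7, 19.6, 18.4 and 22.5 CPM in Klko mice, against 25.4, 41.5, 29.4 and 26.5 CPM in WT-y mice. No Klko library reached the lowest WT-y library, and the Klko libraries lay close together while WT-y replicate 2 stood above the rest of its group. The difference was -0.60 on the log2 scale (SE 0.14, limma adjusted p = 0.0144). Its paralogs did not pass: Per1 had 63.5 to 94.0 CPM in Klko mice and 60.8 to 128.7 CPM in WT-y mice, a log2 difference of -0.10 (SE 0.18). Per3, the Per gene least required for behavioural rhythms in mice, had 20.5 to 28.9 CPM in Klko mice and 22.6 to 33.5 CPM in WT-y mice, a log2 difference of -0.15 (SE 0.12).

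Among the activators, Clock (chr5:76209868-76304792) had 48.0, 60.5, 56.3 and 55.3 CPM in Klko mice, against 82.9, 62.0, 68.0 and 63.2 CPM in WT-y mice. Its groups did not overlap, by a gap of under 2 CPM between Klko replicate 2 and WT-y replicate 2. The difference was -0.32 on the log2 scale (SE 0.10, limma adjusted p = 0.0431). Arntl (chr7:113207465-113314126) had 27.4, 22.1, 21.8 and 26.6 CPM in Klko mice, against 37.0, 29.5, 28.8 and 28.3 CPM in WT-y mice. Its groups did not overlap either, but its difference of -0.33 (SE 0.11) missed the threshold (limma adjusted p = 0.0654). Npas2, the paralog of Clock, had 47.1, 24.7, 34.8 and 39.4 CPM in Klko mice, against 29.1, 48.0, 31.0 and 30.5 CPM in WT-y mice, a log2 difference of 0.07 that lay within this spread (SE 0.18). Nr1d2 had 54.4 to 67.7 CPM in Klko mice and 55.8 to 79.4 CPM in WT-y mice, a log2 difference of -0.11 (SE 0.12).

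**Figure D1:**
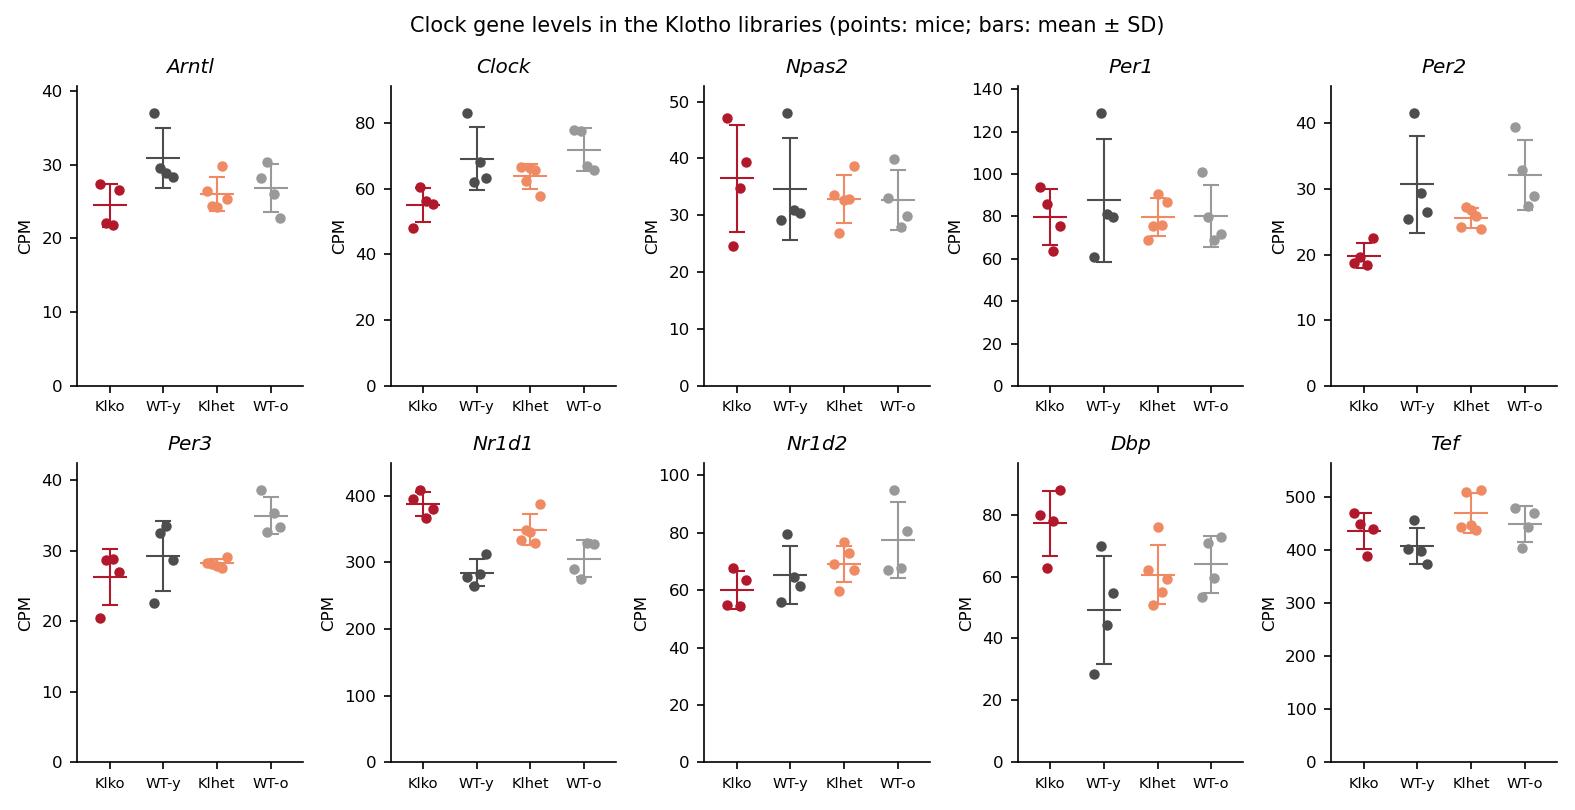
CPM of each of the 10 clock genes in the Klotho mice, 1 panel per gene with its own axis from 0. Points are mice and bars are the group mean with its SD, for Klko (n = 4), WT-y (n = 4), Klhet (n = 5) and WT-o (n = 4). Nr1d1 is above WT-y in all 4 Klko mice, and Per2, Clock and Arntl are below WT-y in all 4.

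Nr1d1 and Per2 kept an adjusted p under 0.05 when any 1 of the 8 libraries of this comparison was left out, with adjusted p of 0.0016 to 0.020 for Nr1d1 and 0.0085 to 0.041 for Per2. Dbp did so in 3 of these 8 fits. Without Klko replicate 1, 3 or 4 or WT-y replicate 3 its adjusted p lay between 0.0742 and 0.0942, and without WT-y replicate 1 its difference was 0.47 with an adjusted p of 0.106. Clock did so in 2 of 8 fits, and its adjusted p was 0.0524 without WT-y replicate 4, 0.0718 to 0.124 without Klko replicate 1, 3 or 4 or WT-y replicate 3, and 0.148 without WT-y replicate 1. Among these 8 fits Arntl passed only without WT-y replicate 2 (adjusted p = 0.0439). Over all 18 alternatives to the fit, the adjusted p of limma, edgeR or DESeq2 ran from 1.9e-05 to 0.0756 for Nr1d1, from 0.0018 to 0.0939 for Per2, from 0.0026 to 0.143 for Dbp, from 0.0134 to 0.159 for Clock and from 0.0305 to 0.212 for Arntl.

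Striatal markers differed among the same libraries. All 10 of 10 were measured, none passed the test between these groups, and their summed level ran from 290.7 to 2579 CPM in Klko mice and from 230.9 to 1416 CPM in WT-y mice, highest in Klko replicates 1 and 4 and in WT-y replicate 2. With that level as a covariate, chosen after the data were seen, Nr1d1 (0.49, limma adjusted p = 0.0027), Per2 (-0.68, adjusted p = 0.0086) and Arntl (-0.40, adjusted p = 0.0305) passed, while Dbp (0.55, adjusted p = 0.0616) and Clock (-0.29, adjusted p = 0.0724) did not. Among 10 genes that respond to cold or heat shock, 2 were higher and 3 lower in Klko mice, with summed levels of 890.8 to 943.9 CPM in Klko mice against 1110 to 1402 CPM in WT-y mice. Of 4 hypothalamic markers measured, out of 7, 1 was higher, with a median log2 fold change of 1.19 and summed levels of 21.6 to 77.9 CPM in Klko mice against 13.5 to 28.1 CPM in WT-y mice. None of 10 choroid plexus epithelial markers passed, with a median log2 fold change of -1.02 and summed levels of 280.2 to 5656 CPM in Klko mice against 2389 to 7960 CPM in WT-y mice. Of 10 neuronal markers 1 was lower, as was 1 of 8 oligodendrocyte markers. Of 10 glucocorticoid targets 2 were higher, and of 10 immediate early genes 0 passed. The part of these gene groups in the changes of the clock genes was not tested further.

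Of 20 further clock genes, a fixed list that holds the Cry, Ror and Bhlhe genes, Ciart, Nfil3 and Hlf, 1 was higher and 0 lower in Klko mice, a smaller share than the 11.3% of all genes that passed. It was Bhlhe41, which encodes the repressor DEC2 and whose own promoter window holds an E-box. Bhlhe41 had 54.6, 53.3, 66.6 and 51.7 CPM in Klko mice, against 36.9, 53.8, 29.4 and 38.7 CPM in WT-y mice (0.53 on the log2 scale, SE 0.15, limma adjusted p = 0.0355). WT-y replicate 2 was again within the Klko range.

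At 9 months no member passed between Klhet and WT-o mice, as for 0% of all genes, with limma adjusted p of 0.406 or more. At an unadjusted p under 0.05 there were 3 members, against 11.3% of all genes, and the groups did not overlap for 2 members, against 6.72% of all genes. These 2 were Per3, at 27.6 to 29.2 CPM in Klhet mice and 32.6 to 38.7 CPM in WT-o mice, and Per2, at 23.9 to 27.2 CPM in Klhet mice and 27.4 to 39.4 CPM in WT-o mice. Their log2 differences were -0.30 for Per3 (SE 0.11) and -0.31 for Per2 (SE 0.13). Nr1d1 had 328.9 to 387.8 CPM in Klhet mice and 275.6 to 329.4 CPM in WT-o mice, overlapping by less than 1 CPM (0.19, SE 0.07). The other 7 members had log2 differences between -0.17 for Clock and 0.07 for Tef.

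Whether the knockout and the heterozygous contrasts differed was tested as their difference. No member passed, as for 0% of all genes, and at an unadjusted p under 0.05 there were 2 members, against 8.87% of all genes. Dbp, at 50.7 to 76.0 CPM in Klhet mice and 53.3 to 72.6 CPM in WT-o mice, had the larger difference of contrasts, 0.78 on the log2 scale (SE 0.28, limma adjusted p = 0.45). That of Nr1d1 was 0.25 (SE 0.11). Genotype dose and age changed together between these contrasts and cannot be told apart. Between the wildtype groups, WT-o against WT-y, no member passed, against 0.0468% of all genes, and at an unadjusted p under 0.05 there were 2 members, Dbp (0.43, SE 0.20) and Per3 (0.26, SE 0.12), against 8.01% of all genes.

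The ratio of Dbp to Arntl was used as a simple description of how these opposed genes of the loop stood to each other, without a test. It ran from 2.85 to 3.57 in Klko mice and from 0.770 to 2.37 in WT-y mice, with medians of 3.11 in Klko mice and 1.74 in WT-y mice, and the groups did not overlap. It ran from 1.85 to 3.13 in Klhet mice and from 1.89 to 3.20 in WT-o mice, with medians of 2.34 in Klhet mice and 2.30 in WT-o mice. Per2 fell in Klko mice against WT-y mice (-0.60 on the log2 scale) while Dbp rose (0.70). Whether the ratio reports the phase of the loop in the Klotho mice was not tested. Within groups, over all 17 Klotho mice with group means removed, the relation of Dbp and Arntl did not pass (Pearson's r = -0.35, permutation p adjusted over 145 relations = 0.40). Of 45 pairs of members 1 passed, Per1 with Per2 (r = 0.77, Spearman's rho = 0.71, permutation adjusted p = 0.033), and its r was 0.54 without the 2 libraries farthest from the median. Without WT-y replicate 2 alone it was 0.56 with an adjusted p of 0.44, so that this pair rested on 1 library.

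In the infusion experiment, the comparisons asked whether young serum, with or without its vesicles, moved the clock genes of aged tissue. In the choroid plexus no member passed between YS and Sham, between YS and YDS or between YDS and Sham, as for 0% of all genes in each of the 3. At an unadjusted p under 0.05 there were 0 members between YS and Sham, against 2.11% of all genes, 1 between YS and YDS, against 7.51%, and 0 between YDS and Sham, against 1.43%. The 1 was Nr1d1, with a median of 90.6 CPM in YS mice and 78.3 CPM in YDS mice (0.25 on the log2 scale, SE 0.10, limma adjusted p = 0.39), and that difference was 0.01 in the first run of mouse numbers and 0.38 in the second. Beside it, neuronal and oligodendrocyte markers were higher in YS than in YDS mice at the unadjusted level, 8 of 8 and 6 of 7 measured, with summed neuronal levels of 23.5 to 377.5 CPM in YS mice against 16.5 to 51.1 CPM in YDS mice and summed oligodendrocyte levels of 79.7 to 809.1 CPM in YS mice against 75.5 to 144.9 CPM in YDS mice. None of them passed after adjustment, and their part in the difference of Nr1d1 was not tested. These 3 comparisons share their arms.

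Within each arm, the choroid plexus libraries spread far more than the arms differed. Arntl ran from 2.96 over a median of 5.44 to 18.2 CPM in YS mice, from 2.98 over 7.53 to 16.6 CPM in YDS mice and from 2.67 over 8.03 to 23.9 CPM in Sham mice, so that Sham mice held both the lowest and the highest of all 34 values. Dbp ran from 18.3 over 47.9 to 69.9 CPM in YS mice, from 18.5 over 39.7 to 58.6 CPM in YDS mice and from 13.6 over 29.9 to 63.3 CPM in Sham mice. The highest library was 8.95-fold above the lowest for Arntl and 5.13-fold for Dbp. Between YS and Sham mice the log2 differences were -0.32 for Arntl (SE 0.36) and 0.38 for Dbp (SE 0.28), within this spread. They had the same signs in both runs of mice, at -0.81 in the first run and -0.11 in the second run for Arntl, and 0.58 in the first run and 0.29 in the second run for Dbp. Without the Sham library C410, an alternative added after the data were seen, they were -0.10 for Arntl and 0.20 for Dbp over all mice, and -0.27 for Arntl and 0.17 for Dbp in the first run, so that much of the size of these differences rested on 1 library.

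Per2 ran from 30.9 over 52.8 to 119.7 CPM in YS mice, from 24.8 over 45.8 to 124.8 CPM in YDS mice and from 22.1 over 39.1 to 83.5 CPM in Sham mice. Per3 had medians of 45.2 CPM in YS mice, 39.4 CPM in YDS mice and 31.8 CPM in Sham mice, over a 3.35-fold range. Between YS and Sham mice these differences were 0.37 for Per2 (SE 0.30) and 0.34 for Per3 (SE 0.22), and neither passed. They were 0.90 in the first run and 0.15 in the second for Per2, and 0.47 in the first run and 0.26 in the second for Per3. Without C410 they were 0.24 for Per2 and 0.26 for Per3 over all mice, and 0.56 for Per2 and 0.29 for Per3 in the first run. Per1 (0.09, SE 0.24) and Npas2 (-0.21, SE 0.17) also stayed within their spread, as did Tef (0.28, SE 0.16) and Nr1d2 (0.12, SE 0.16). Npas2 had medians of 13.8 CPM in YS mice, 14.2 CPM in YDS mice and 17.4 CPM in Sham mice.

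Some members differed between the runs of mouse numbers. Clock had a median of 39.9 CPM in the first run and 127.8 CPM in the second run, and its correlation with the first principal component was -0.96. Per1 had medians of 124.8 CPM in the first run and 60.5 CPM in the second run, and Per2 of 83.2 and 39.5 CPM in these runs. Nr1d2 went the other way, with medians of 118.5 CPM in the first run and 168.4 CPM in the second run. The epithelial markers moved with the runs, with summed levels of 126800 to 241300 CPM in the first run and 108800 to 145900 CPM in the second run. Tef did not follow that component (r = 0.005). The part of epithelial content in the levels of Clock, Per1, Per2 and Nr1d2 was not tested.

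**Figure D2:**
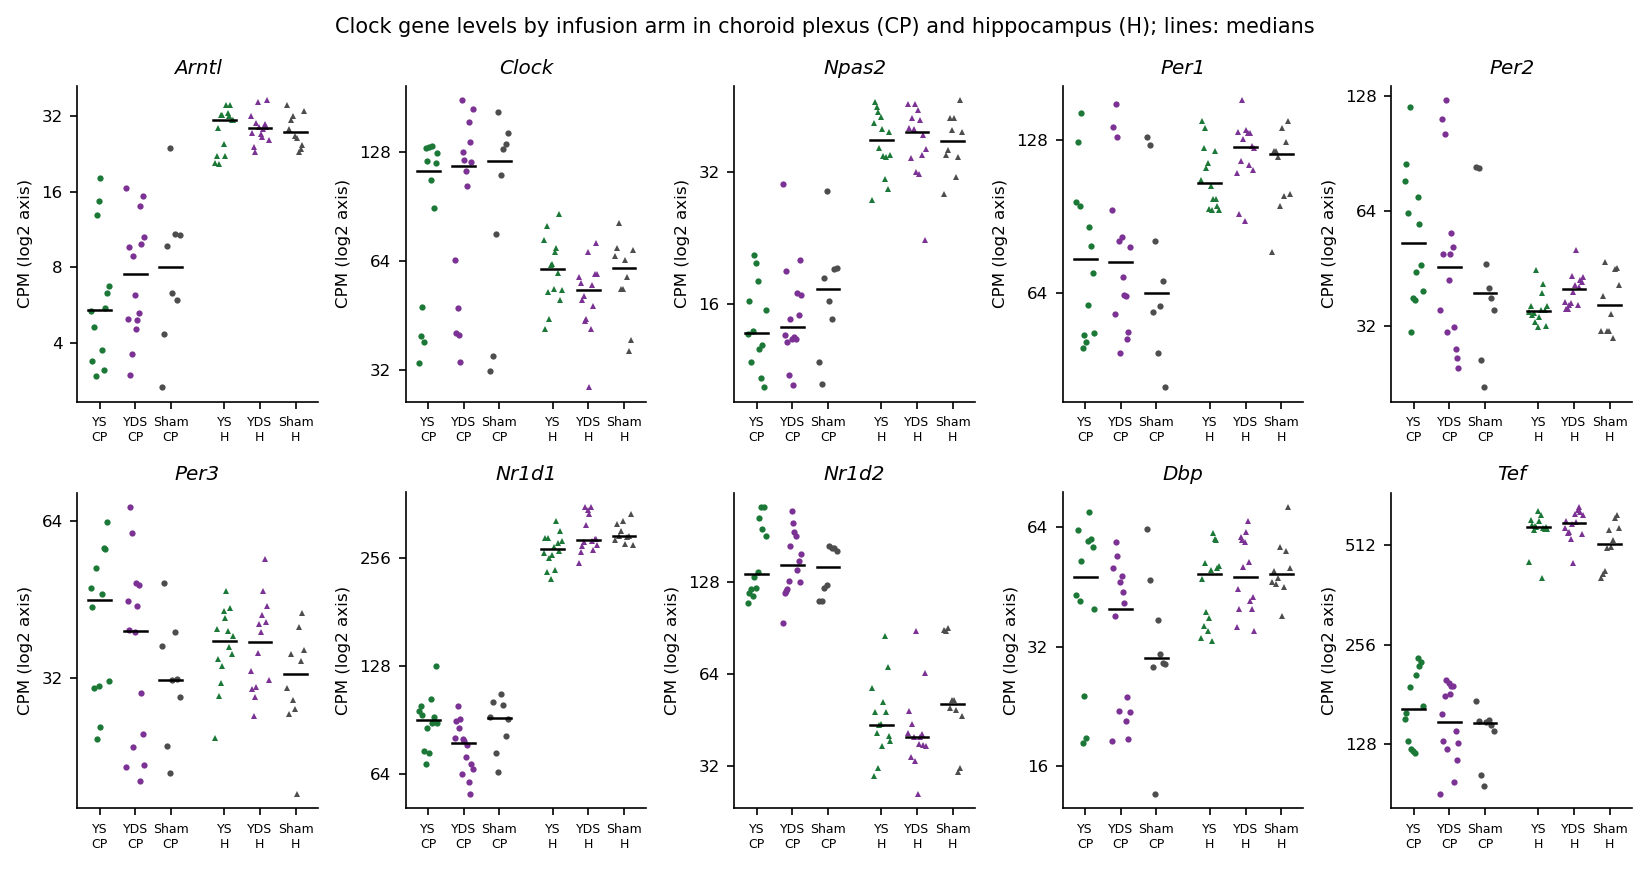
CPM of each clock gene (log2 axis) in the infused mice, 1 panel per gene. Circles are choroid plexus and triangles hippocampus, each by arm (YS, YDS, Sham), and short lines are arm medians. Arntl and Dbp spread 8.95-fold and 5.13-fold in the choroid plexus and 1.79-fold and 2.18-fold in the hippocampus.

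With the run means removed, the SD of log2 CPM in the choroid plexus was 0.77 for Arntl and 0.63 for Dbp, at the 96.7 and 94.3 percentile of all 13662 genes, whose median SD was 0.20. Per2 stood at the 93.3 percentile, Per3 at 91.0, Clock at 88.2, Npas2 at 83.7 and Per1 and Tef at 82.8. The receptors varied less, with Nr1d1 at the 67.1 and Nr1d2 at the 55.6 percentile. In the hippocampus the same measure put Arntl at the 30.7, Dbp at the 48.2, Per2 at the 14.6 and Nr1d1 at the 8.49 percentile of 14440 genes. These percentiles describe the spread between mice within each table and carry no test. They were not computed without C410 or without the 5 hippocampal libraries that stood apart. For Clock in the choroid plexus the SD was 0.65 in the first run, which holds C410, and 0.23 in the second run.

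The spread in the choroid plexus had a fixed form. Dbp and Arntl moved in opposite directions from mouse to mouse, with Pearson's r = -0.93 and Spearman's rho = -0.90 over 34 mice (permutation p = 1e-05, the smallest that 100000 permutations give, and 7.6e-05 adjusted over 145 relations). Without the 2 libraries farthest from the median, r was -0.92. It was -0.97 in the first run and -0.90 in the second run, and -0.92 in YS mice, -0.94 in YDS mice and -0.95 in Sham mice. Without C410 it was -0.92 over all mice and -0.95 in the first run. Pairs of values for the runs are given with the first run before the second. The ratio of Dbp to Arntl accordingly ran from 1.04 to 22.4 in YS mice, from 1.12 to 19.7 in YDS mice and from 0.569 to 23.7 in Sham mice, with medians of 8.99 in YS mice, 5.72 in YDS mice and 3.92 in Sham mice. Each arm spanned nearly the whole range.

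**Figure D3:**
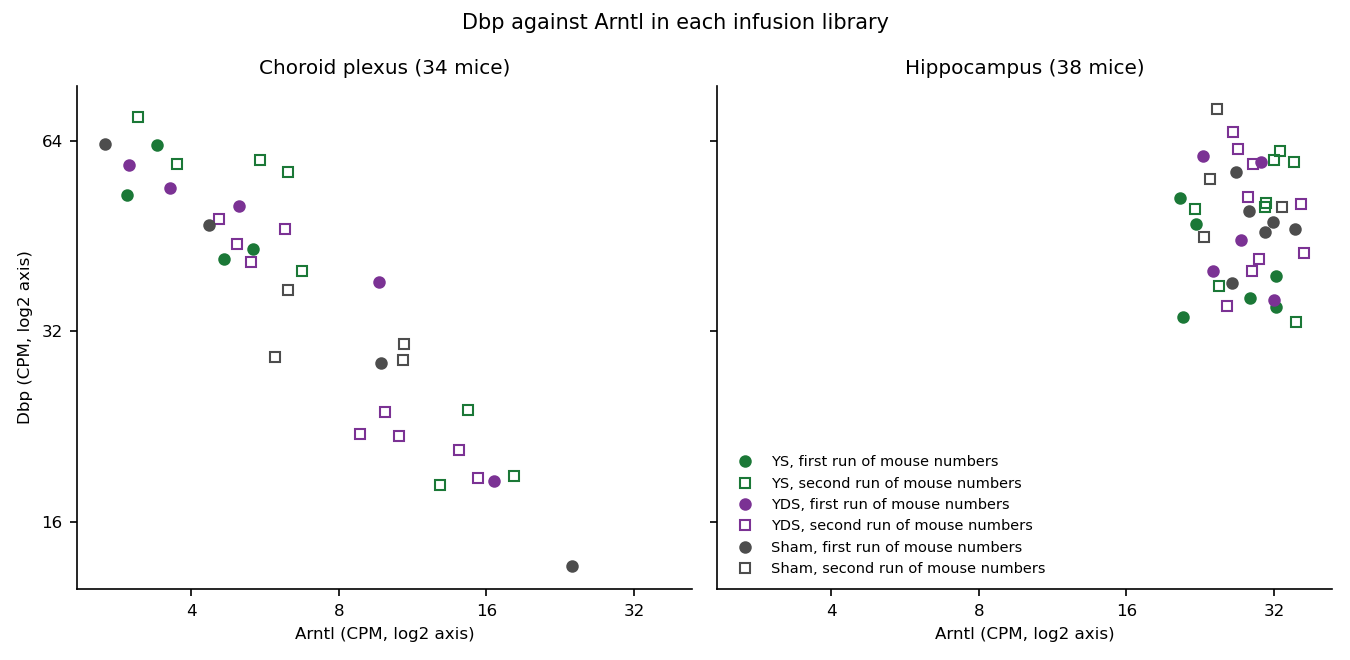
Dbp against Arntl in the infused mice (CPM, log2 axes), choroid plexus and hippocampus in separate panels. Each point is a mouse, colours are arms, filled circles are the first run and open squares the second run. The choroid plexus falls along a line (r = -0.93) and the hippocampus does not (r = -0.05).

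The Per genes followed Dbp. Per2 against Arntl gave r = -0.82 (rho = -0.86), with -0.90 in the first run and -0.77 in the second run. Per3 against Arntl gave r = -0.80 (rho = -0.77), with -0.81 and -0.78 in these runs. Per1 against Arntl was looser, with r = -0.61 (rho = -0.65, permutation adjusted p = 0.0012) and -0.73 and -0.50 in the runs. Without the 2 farthest libraries, r was -0.81 for Per2, -0.76 for Per3 and -0.54 for Per1.

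Npas2, which like Arntl is a known target of REV-ERB repression, moved with Arntl (r = 0.80, rho = 0.77). In the runs r was 0.89 and 0.77, and rho was 0.63 and 0.78. Against Npas2, r was -0.81 for Dbp, -0.63 for Per2 and -0.76 for Per3. Per1 against Npas2 passed over all mice by rank only (r = -0.38 with a permutation adjusted p of 0.074, rho = -0.48 with one of 0.017), while within the runs it was -0.56 and -0.60. Among the PAR bZIP genes, Tef moved with Dbp (r = 0.87) and against Arntl (r = -0.80). Nr1d1 moved with Dbp (r = 0.66, rho = 0.61), with r of 0.67 and 0.66 and rho of 0.32 and 0.65 in the runs, and without C410 the r of the first run was 0.40 with a permutation adjusted p of 0.25. It moved more weakly against Arntl (r = -0.48, and -0.54 and -0.44 in the runs), with -0.22 in the first run without C410. Ranked by rho among all genes, Nr1d1 held place 144 in likeness to Dbp and place 2037 in opposition to Arntl. Per1 held places 560 and 42 in these rankings, and Tef places 2 and 7. The relation of Nr1d2 and Arntl did not pass over all mice (r = -0.16, rho = 0.01, permutation adjusted p for r = 0.50). It passed in the second run alone (r = -0.88, rho = -0.87, permutation p for r adjusted over the 45 pairs = 4.1e-05) and not in the first (r = -0.16, rho = 0.11). Nr1d2 and Dbp gave r = 0.26 over all mice, 0.91 in the second run (rho = 0.92) and 0.19 in the first run (rho = -0.08).

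Of the 45 pairs in the choroid plexus, 34 passed at a permutation p adjusted under 0.05, 17 positive and 17 negative. The share of all gene pairs that would pass was not computed. The same sign was kept by 34 of 34 in the first run and by 31 of 34 in the second run. The pairs were picked over all of these mice, so this agreement is no independent check. The 3 that turned in the second run all involved Clock, Nr1d2 or Per1, the genes whose levels differed between the runs. Per1 and Nr1d2 gave -0.45 over all mice and 0.45 in the second run, Per1 and Clock -0.76 and 0.05, and Nr1d2 and Clock 0.64 and -0.29. Clock against Arntl gave 0.58, with 0.87 and 0.43 in the runs, and its rho was 0.62, with 0.73 and 0.41.

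**Figure D4:**
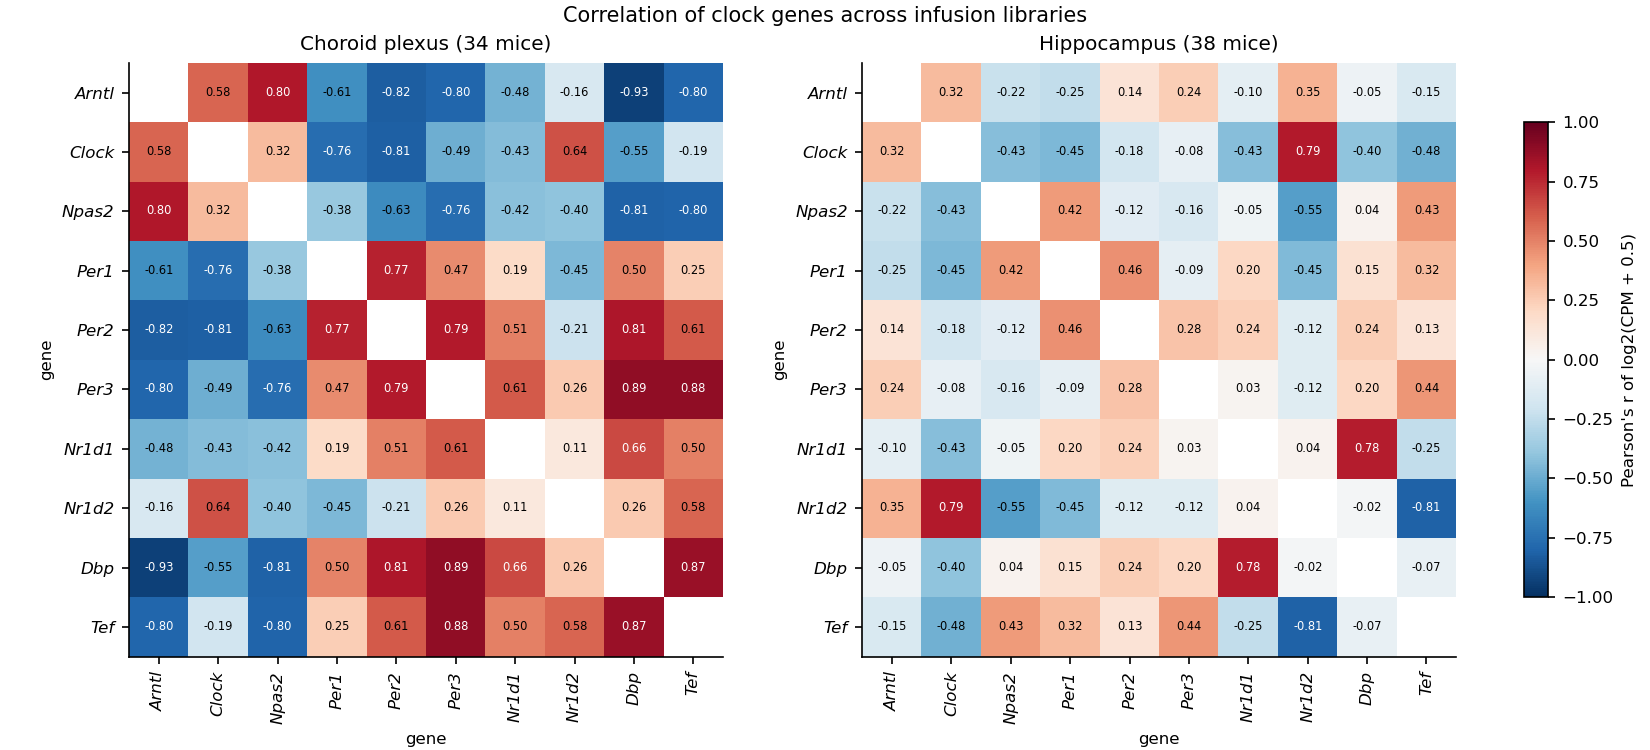
Pearson's r of log2(CPM + 0.5) for all 45 pairs of clock genes across mice, in the choroid plexus (n = 34) and the hippocampus (n = 38), on a colour scale from -1 to 1. In the choroid plexus Arntl and Npas2 are negative against Dbp, Tef, Per2 and Per3, and in the hippocampus Arntl lies between -0.15 and 0.24 against these 4 genes.

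In the choroid plexus the levels ran in stretches along the mouse numbers. The Sham libraries C409 and C410 and the YDS library C411 had Dbp of 28.5, 13.6 and 18.5 CPM with Arntl of 9.75, 23.9 and 16.6 CPM. The YS libraries C421, C422 and C423 had Dbp of 18.3, 24.1 and 18.9 CPM with Arntl of 12.9, 14.7 and 18.2 CPM. The YDS libraries C437 to C440 had Dbp of 18.8 to 23.9 CPM with Arntl of 9.95 to 15.4 CPM. All 3 arms thus held mice with low Dbp and high Arntl.

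The opposite state was also found in all 3 arms. The YS library C404 had 52.7 CPM of Dbp and 2.96 CPM of Arntl, the Sham library C406 had 63.3 CPM of Dbp and 2.67 CPM of Arntl, and the YDS library C417 had 58.6 CPM of Dbp and 2.98 CPM of Arntl. The YS libraries C427 to C430 had Dbp of 57.1 to 69.9 CPM with Arntl of 3.12 to 6.31 CPM. Of 33 pairs of mice with neighbouring numbers, 23 were of the same arm. The median absolute log2 difference between neighbours was 0.34 for Dbp, 0.23 for Per2 and 0.52 for Arntl, against 0.63, 0.67 and 0.79 over all 561 pairs. Those 561 pairs include mice of different runs, while nearly all neighbours share a run. In the hippocampus neighbours gave 0.19 for Dbp, 0.14 for Per2 and 0.28 for Arntl, against 0.31, 0.19 and 0.23 over all pairs. Neither the order of dissection nor its time is given in the sources used here, so their part in the arms' medians was not tested.

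**Figure D5:**
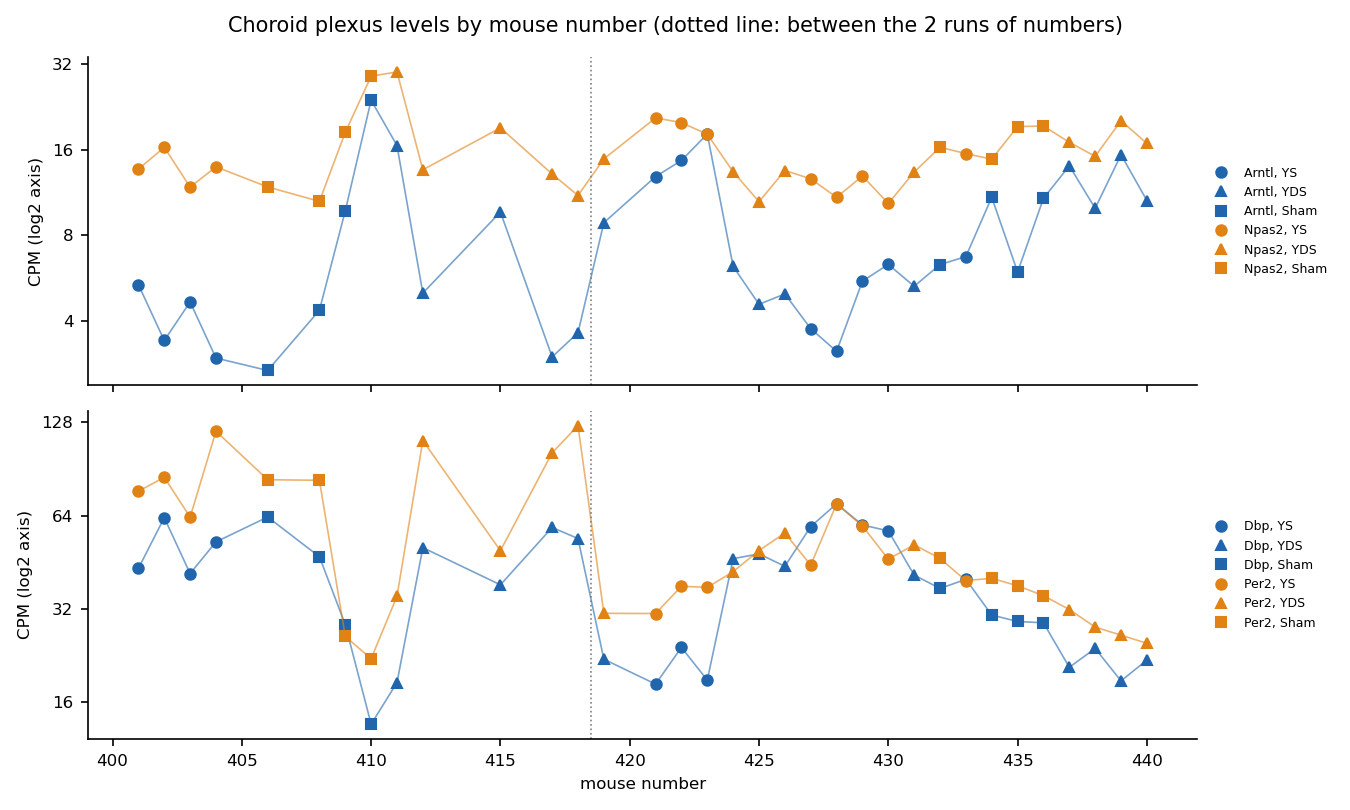
CPM (log2 axis) in the choroid plexus by mouse number, with Arntl and Npas2 in the upper panel and Dbp and Per2 in the lower one. Colours are genes, marker shapes are arms, and the dotted line parts the first run from the second. Arntl is high where Dbp is low, as in C421 to C423 and C437 to C440, and low where Dbp is high, as in C427 to C430.

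In the hippocampus of the same experiment no member passed between YS and Sham, against 0.0346% of all genes, nor between YS and YDS or between YDS and Sham, against 0% of all genes in both. At an unadjusted p under 0.05 there was 1 member between YS and Sham, against 17.4% of all genes, 2 between YS and YDS, against 6.29%, and 2 between YDS and Sham, against 12.4%. Nr1d1 ran from 223.3 over a median of 270.7 to 324.8 CPM in YS mice, from 246.8 over 286.1 to 354.6 CPM in YDS mice and from 278.3 over 294.6 to 339.5 CPM in Sham mice. Its log2 differences were -0.16 between YS and Sham (SE 0.06) and -0.14 between YS and YDS (SE 0.06), with the same sign in both runs: -0.22 and -0.11 for YS and Sham, and -0.13 and -0.14 for YS and YDS, the first run given before the second. Per2 had medians of 35.1 CPM in YS mice and 39.9 CPM in YDS mice (-0.15, SE 0.07, with -0.00 in the first run and -0.24 in the second).

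Nr1d2 and Tef differed between YDS and Sham at the unadjusted level, by -0.37 (SE 0.18) and 0.20 (SE 0.08). Nr1d2 ran from 26.0 over 39.9 to 89.1 CPM in YDS mice and from 30.6 over 51.3 to 91.1 CPM in Sham mice. These 2 genes followed the libraries that stood apart, with correlations of 0.95 for Nr1d2 and -0.87 for Tef with the first principal component of the hippocampus. Without those 5 libraries the differences were -0.14 for Nr1d2 and 0.10 for Tef. In the first run alone, where 3 of 6 Sham libraries were among them, Nr1d2 passed between YS and Sham (-0.73, limma adjusted p = 0.0037) and between YDS and Sham (-0.72, adjusted p = 0.0126), and Tef passed between YS and Sham (0.27, adjusted p = 0.030), while in the second run Nr1d2 gave 0.36 and 0.13 and Tef -0.04 and 0.03. Over the 13 alternatives for each of these 2 comparisons, no member passed in the other 12.

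The hippocampal levels of the opposed genes lay close together. Arntl ran from 20.6 over 30.7 to 35.4 CPM in YS mice, from 22.9 over 28.6 to 36.8 CPM in YDS mice and from 23.0 over 27.6 to 35.2 CPM in Sham mice, a 1.79-fold range over all mice. Dbp ran from 33.1 over 48.6 to 61.8 CPM in YS mice, from 35.1 over 47.8 to 66.3 CPM in YDS mice and from 38.2 over 48.7 to 72.0 CPM in Sham mice, a 2.18-fold range. The ratio of Dbp to Arntl had medians of 1.65 in YS mice, 1.65 in YDS mice and 1.63 in Sham mice, and no value above 2.94. Npas2 (medians 38.0, 39.5 and 37.8 CPM in YS, YDS and Sham mice) and Per1 (105.1, 123.8 and 119.7 CPM in these arms) also had arm medians within the spread of each arm.

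The relation of Dbp and Arntl did not pass across the 38 hippocampi (r = -0.05, rho = -0.06, permutation adjusted p = 0.87, and -0.14 and -0.08 in the runs). Per2 against Arntl gave 0.14, Per3 against Arntl 0.24 and Per1 against Arntl -0.25. Npas2 gave -0.22 against Arntl (permutation adjusted p = 0.31) and 0.04 against Dbp. None of these 6 relations passed, and the difference of a correlation between the tissues was not tested.

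Other pairs did pass in the hippocampus, 14 of 45, 6 positive and 8 negative, with the same sign in both runs for 14 of 14. The pairs were picked over these same mice, so this agreement is no independent check. The share of all gene pairs that would pass was not computed here either. Dbp moved with Nr1d1, both direct targets of CLOCK and BMAL1 (r = 0.78, rho = 0.73, and 0.82 and 0.75 in the runs, and 0.78 without the 5 libraries that stood apart). Clock moved with Nr1d2 (r = 0.79, rho = 0.83, and 0.85 without those libraries). Nr1d2 and Tef moved in opposite directions (r = -0.81, rho = -0.69), and without those libraries r was -0.49 (permutation adjusted p = 0.022). Per1 moved with Per2 (r = 0.46, adjusted p = 0.016) and with Npas2 (r = 0.42, adjusted p = 0.024).

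Across the 34 mice with both tissues, 2 of the 10 members were related between choroid plexus and hippocampus of the same mouse. The share of all genes related between the tissues in this way was not computed. Per1 gave r = 0.60 (permutation adjusted p = 0.0012), with 0.72 in the first run (adjusted p = 0.0597 over the 10 members) and 0.56 in the second run (adjusted p = 0.0495), and without the 2 farthest libraries the first run gave 0.28. Dbp gave r = 0.54 (rho = 0.55, adjusted p = 0.0046), with 0.49 (adjusted p = 0.454) in the first run and 0.71 (adjusted p = 0.0039) in the second run. Arntl gave 0.19 (adjusted p = 0.44) and Per2 -0.19. The remaining 6 lay between -0.24 and 0.06. Mice with high Dbp in the choroid plexus thus tended to have high Dbp in the hippocampus, over a narrower range.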

How the data were processed

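Per the paper's methods, Subread aligned the reads to mm10, and the submitters' processing notes name featureCounts. The authors deposited CPM scaled to each library's total, without TMM factors. The tables also hold the authors' log2 fold changes, p-values and FDR from edgeR, which were not used. Each value was a whole number of reads (100% within 0.05 reads). Symbols turned into dates were restored (23, 19 and 21 in the Klotho, choroid plexus and hippocampal tables) and 3 repeated symbols were left out.

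All genes were tested with limma 3.58.1 with trend (R 4.3.3) on log2(CPM + 0.5), two-sided, with Benjamini-Hochberg adjustment and a threshold of 0.05. The pseudocount understates changes of low genes. The 4 Klotho groups shared 1 fit, and the 3 arms shared 1 fit per tissue. Alternatives included edgeR 4.0.16 and DESeq2 1.42.0 on recovered reads, other scalings, pseudocounts of 0.1 and 1, and leaving out each Klotho library. A filter that kept genes at 1 CPM or more in 4 or more libraries was another. Correlations used log2(CPM + 0.5) with 100000 permutations. The genes named beside members were the 5 most like Dbp or Arntl in each direction. The members and lists were chosen with earlier results of these data known. Positions and exon lengths are those of GENCODE, and promoters those of RefSeq.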

Additional observations from a re-analysis of the deposited data

Results flagged for a closer look

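Among 60 groups of 4 to 10 mice examined for a library far from the rest, 3 had one, and chance gives about 1 in 20. Arntl in the Sham library C410 of the choroid plexus was 23.92 CPM, against 10.88 CPM in the nearest other Sham mouse. The same library had the lowest Dbp of the choroid plexus. Arntl in WT-y replicate 1 was 36.95 CPM, against 29.49 CPM in the nearest other WT-y mouse, and that library also had the lowest Dbp of its group. Npas2 in WT-y replicate 2 was 47.95 CPM, against 30.95 CPM in the nearest other, and its striatal marker level was the highest of its group. These libraries were kept in every main comparison. Between Klko and WT-y mice, the log2 difference of Npas2 was 0.23 without WT-y replicate 2 (limma adjusted p = 0.33). That of Arntl was -0.24 without WT-y replicate 1 (limma adjusted p = 0.21).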

How the results depend on the processing

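The count of 4 members that passed between Klko and WT-y mice was 0 when only those 8 libraries were fitted, where no member had an adjusted p under 0.0756, and 5 with DESeq2. Leaving out 1 library gave 2 to 5, with 2 (Nr1d1 and Per2) without Klko replicate 1, 3 or 4 or WT-y replicate 1 or 3. Replicate numbers did not pair the Klotho libraries, since same-numbered libraries of Klko and WT-y mice deviated with r of -0.483 to -0.0837, and a replicate block gave 2 (Nr1d1 and Per2) and changed no other count of members called. Between Klhet and WT-o mice the count was 0 in 19 of 19 alternatives. In the choroid plexus it was 0 in 14 of 14 for each comparison of arms, although edgeR on recovered reads called 400 genes, and DESeq2 563, between YS and YDS where limma called 0. In the hippocampus the count was 2 between YS and Sham and 1 between YDS and Sham in the first run only, and 0 under the other 12 alternatives of each. The correlation of Dbp between tissues was 0.489 in the first run only and no longer passed, nor did that of Per1 (0.72, permutation adjusted p = 0.0597). Of 1618 single values under an alternative, 1477 kept their direction and side of the threshold, 19 no longer passed and 6 newly passed. Another 116 that had not passed changed direction, and 0 values that had passed did so. Over these tables edgeR called 1720 genes between Klko and WT-y mice, against 1687 by limma. The arms come from column names, collection times are unknown, and 1 time point per mouse cannot separate phase from amplitude.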

Other observations

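The gene whose choroid plexus pattern was most like that of Dbp was Ciart, a repressor of CLOCK and BMAL1 also known as Chrono, with a Spearman's rho of 0.956 over 34 mice with 0.918 in the first run of mouse numbers and 0.966 in the second. Ciart ran from 2.33 over 8.58 to 16.0 CPM in YS mice, from 2.07 over 5.56 to 16.4 CPM in YDS mice and from 1.07 over 4.81 to 18.2 CPM in Sham mice, a wider range than that of Dbp. With the members left out, Sox13 (0.831), a transcription factor, came after Ciart. Then came Coq10b (0.818), which acts in coenzyme Q biology, Neu2 (0.783) and Tspan4. The members Tef (0.88), Per3 (0.86) and Per2 (0.85) would stand between Ciart and Sox13. The genes outside the members most opposed to Dbp were Rflnb, Mansc1 (-0.876), Fam189a2 (-0.872), the interleukin receptor Il1r1 (-0.842) and the transporter Slc16a6 (-0.835). The member Arntl (-0.90) was more opposed to Dbp than any of these. Il1r1 was also the gene most like Arntl (0.887), followed by Ptk2b, Syt17 (0.826), Fam189a2 (0.825) and Rflnb (0.823), and Ciart was the most opposed to it (-0.904). These values choose the genes and carry no test.

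In the hippocampus the genes most like Dbp, the members left out, were Ssbp4 (0.771), the carbonic anhydrase-related gene Car11 (0.766), Rita1 (0.72), Inafm1 (0.709) and Acbd4 (0.665), over 38 mice. None of these 5 is on the clock gene lists, and the member Nr1d1 (0.731) would stand between Car11 and Rita1. Ciart there ran from 4.71 to 9.09 CPM in YS mice, from 4.81 to 11.5 CPM in YDS mice and from 4.20 to 9.21 CPM in Sham mice. Immediate early genes, which respond to neuronal activity, had median summed levels of 567 CPM in YS mice, 706.9 CPM in YDS mice and 635.5 CPM in Sham mice. At an unadjusted limma p under 0.05, 7 of 10 were lower in YS than in YDS mice, against 6.29% of all genes. Between YS and Sham mice 3 were lower, against 17.4% of all genes. None passed after adjustment, and their part in the hippocampal differences of Nr1d1 and Per2 was not tested.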
